A study of Mus musculus with 6 samples.

Results

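Ung, Polh, Msh6, Exo1, Rev1, Apex2, Trp53bp1 and Lig4 are 8 genes for DNA repair proteins that act on immunoglobulin genes during somatic hypermutation and class switch recombination. They were chosen by name, and all 8 were found among the 35275 genes of the deposited expression table. The data are mRNA levels of splenic B cells, in FPKM (read counts scaled to gene length and to the library's reads on genes), from C57BL/6 mice aged 6 to 8 weeks. The mice were wild type (WT) or carried an altered CD40 ligand, named CD40LΔ5. Both genotypes had been injected with sheep red blood cells (SRBC), which start a T cell-dependent germinal centre response, and spleens were taken on day 8. There were 3 libraries of each genotype by the labels, from B cells enriched with a magnetic kit for all B cells, so germinal centre cells were not separated from resting ones. The labels do not say what the Δ5 allele lacks, nor whether a library stands for 1 mouse, so p-values measure the spread between these libraries only.

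Both processes start from uracil in the DNA of immunoglobulin genes. Uracil DNA glycosylase (Ung) can remove the uracil, which leaves an abasic site that AP endonucleases such as Apex2 can cut or that Rev1 can copy across. A mismatch receptor that contains Msh6 can bind the U:G pair instead and bring in the exonuclease Exo1, and polymerase eta (Polh) then fills the gap with errors at A:T pairs. In class switching the cuts become breaks in both strands, 53BP1 (Trp53bp1) shields their ends, and DNA ligase IV (Lig4) with Xrcc4 seals them. Ung, Msh6 and Exo1 also serve replication in dividing cells of any kind.

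Group membership differed between the deposited sources and decides the direction of several results. The authors' deposited table of group means has columns for MUT and WT. Averaging CD40LΔ5 replicate 2 with WT replicates 1 and 2 gives its MUT column, and averaging WT replicate 3 with CD40LΔ5 replicates 1 and 3 gives its WT column (largest deviation 3.33e-08 FPKM). Every value below is therefore given by library, and differences are given both by label (CD40LΔ5 minus WT) and by the table's sets (MUT-averaged minus WT-averaged libraries). Cd40lg, the altered gene, held 17, 13 and 7 reads in WT replicates 1, 2 and 3 and 4, 15 and 5 reads in CD40LΔ5 replicates 1, 2 and 3, too few to settle the matter. Its means were 0.248 ± 0.204 FPKM in CD40LΔ5 and 0.388 ± 0.168 in WT by label (SD, n = 3; two-sided exact p = 0.3, by permutation). In the table's sets they were 0.481 ± 0.0526 and 0.155 ± 0.0437 FPKM, higher in the MUT-averaged libraries (SD, n = 3; two-sided exact p = 0.1, the smallest that 3 against 3 allows).

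Libraries held 24320080 to 27866611 reads on genes. The 7 B cell markers considered were present in all libraries and summed to 3990 to 4639 FPKM. Of the 12 genes of the germinal centre list the summed level was 84.8, 244 and 115 FPKM in the MUT-averaged libraries (WT replicates 1 and 2, CD40LΔ5 replicate 2) and 270, 280 and 173 FPKM in the WT-averaged ones (WT replicate 3, CD40LΔ5 replicates 1 and 3). The 15 proliferation genes summed to 231, 317 and 209 against 392, 383 and 320 FPKM in the same order, groups that did not overlap. Summed markers of natural killer cells stood at 40.0 to 50.1 against 19.1 to 30.2 FPKM, of macrophages at 138 to 264 against 102 to 172, of T cells at 48.1 to 51.6 against 38.6 to 50.3, of neutrophils at 67.4 to 77.4 against 43.2 to 560, of plasma cells at 1125 to 4986 against 2074 to 4823, and of erythroid cells at 818 to 1030 against 314 to 1187 FPKM. No marker of these lists was at 0 in all libraries. Taken gene by gene, every tested marker of B cells (7), T cells (7), natural killer cells (5), macrophages (8) and erythroid cells (8) was higher in the MUT-averaged libraries. Every tested marker of neutrophils (7) and plasma cells (7) was lower there. Among the higher ones, the sets did not overlap for 5 T cell, 2 B cell, 2 natural killer cell and 1 macrophage markers, against 12.1% of all tested genes. The part of these markers in the difference of Cd40lg and in those described below was not tested.

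All 8 genes were transcribed in every library, at moderate to low levels, and each passed the level of 1 FPKM on average that was required for testing. Averaged over the 6 libraries (SD, n = 6), the order was Msh6 (15.9 ± 2.50 FPKM), Polh (12.4 ± 4.25), Ung (8.83 ± 1.27), Rev1 (7.07 ± 0.858), Trp53bp1 (5.96 ± 0.550), Lig4 (3.21 ± 0.453), Apex2 (2.45 ± 0.2995) and Exo1 (1.52 ± 0.272). FPKM is per length, and the order depends on the length used. The deposited length was 2136 bases for Ung and 2569 for Polh, where all their exons in GENCODE M21 cover 5468 and 5950 bases, but 4254 against 4346 for Msh6. With the GENCODE lengths, an alternative added after seeing the data, Msh6 (15.5 FPKM) stayed highest and Apex2 (1.33) and Exo1 (0.993) lowest, while Polh (5.35), Rev1 (4.88), Trp53bp1 (4.05) and Ung (3.45) lay closer together and Ung came after Trp53bp1. The ratio of 1 gene's FPKM between libraries does not depend on its length. Differences of log2(FPKM + 1), given below with the deposited lengths, do depend on it. With its GENCODE length Exo1 (0.993 FPKM) would fall under the level required for testing. The ranges over libraries overlapped between most neighbours in this order, and were apart only between Trp53bp1 and Lig4 and between Apex2 and Exo1. Within libraries the order was steadier: the first of each pair was the higher one in 6 of 6 libraries for 5 of the 7 pairs, and in 5 of 6 for Polh over Ung and for Rev1 over Trp53bp1. The highest library exceeded the lowest by 1.32-fold (Trp53bp1) to 2.06-fold (Polh).

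**Figure D1:**
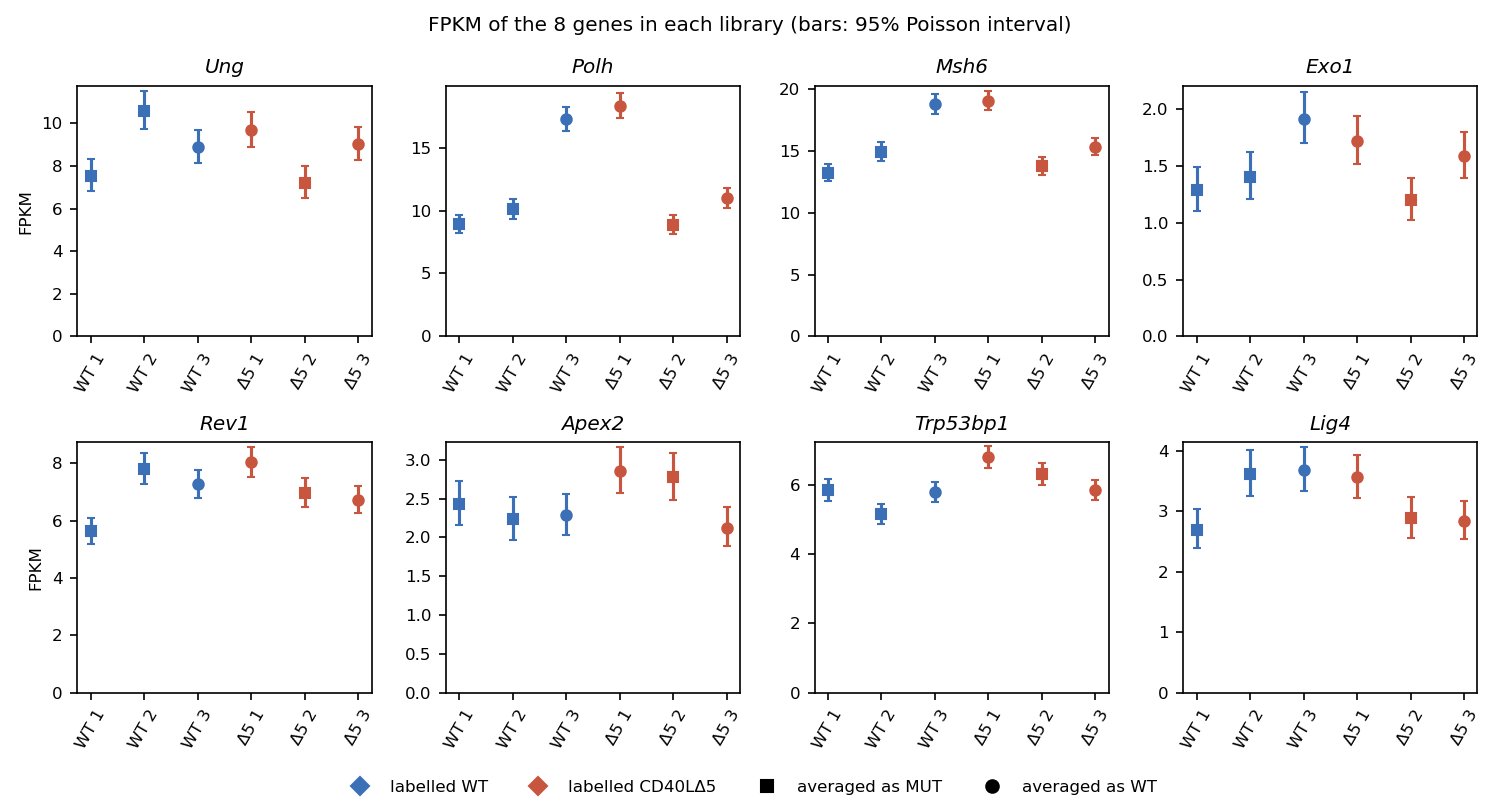
FPKM of each gene (vertical axis from 0) in the 6 libraries (horizontal axis); colour gives the label, the shape gives the column of the authors' table of means, and bars are exact 95% Poisson intervals of the read count. Polh stands at 17.3 and 18.3 FPKM in WT replicate 3 and CD40LΔ5 replicate 1 and at 8.89 to 10.97 FPKM in the other libraries, while Trp53bp1 and Apex2 vary little.

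Polh, the error-prone polymerase that makes most hypermutation at A:T pairs, varied most among the 8. It lies on chromosome 17, 46172004 to 46202625, minus strand; here and below gene spans are as deposited, in the coordinates of GRCm38. It measured 8.90, 10.1 and 17.3 FPKM in WT replicates 1, 2 and 3 and 18.3, 8.89 and 10.97 FPKM in CD40LΔ5 replicates 1, 2 and 3. One library of each label was thus high and the other 4 were near each other. The counts behind these values were 567 to 1278 reads, and the 95% Poisson interval of the lower high library (16.3 to 18.2 FPKM) lay well above that of CD40LΔ5 replicate 3 (10.2 to 11.8 FPKM). These intervals, like all those given here, cover counting error only. By label the means were 12.7 ± 4.95 FPKM in CD40LΔ5 and 12.1 ± 4.52 in WT (SD, n = 3). The limma difference of log2(FPKM + 1) was 0.06 ± 0.31 SE (95% interval -0.68 to 0.81), far inside the spread. It became -0.21 without CD40LΔ5 replicate 1, -0.11 without WT replicate 1, -0.03 without WT replicate 2 and 0.33 without WT replicate 3.

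By the sets of the table the Polh values did not overlap, since both high libraries and CD40LΔ5 replicate 3 fall on the WT-averaged side. The means were 9.29 ± 0.686 FPKM in the MUT-averaged libraries and 15.5 ± 3.97 in the WT-averaged ones (SD, n = 3), 1.67-fold higher in the latter. The limma difference of log2(FPKM + 1) was -0.65 ± 0.18 SE (95% interval -1.08 to -0.22) with an adjusted p of 0.343 over 11252 genes. It kept its sign in all 16 alternative fits, from -0.87 to -0.52, with adjusted p from 0.102 to 1.00. The gap between the sets at their closest was that of CD40LΔ5 replicate 3 to WT replicate 2 (10.97 against 10.08 FPKM), whose Poisson intervals of 10.2 to 11.8 and 9.31 to 10.9 overlap.

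Polh and S1pr2, which encodes a sphingosine phosphate receptor of germinal centre B cells, shared their lowest and their highest libraries. Both were lowest in WT replicate 1 and CD40LΔ5 replicate 2 and highest in WT replicate 3 and CD40LΔ5 replicate 1. WT replicate 2 and CD40LΔ5 replicate 3 lay between in opposite order, with overlapping Poisson intervals for Polh. S1pr2 measured 0.835, 15.9 and 19.5 FPKM in the WT and 21.3, 3.90 and 9.18 FPKM in the CD40LΔ5 libraries, in replicate order. WT replicate 1 thus had little S1pr2 (60 reads) and still 8.90 FPKM of Polh, and the ratio of Polh to S1pr2 ran from 0.634 in WT replicate 2 to 10.7 in WT replicate 1. The 3 other genes whose centred log2 profile over the 6 libraries lay nearest to that of Polh were D8Ertd82e (root mean square difference 0.085), Ttk (0.11), a mitotic kinase, and Bcl6 (0.12), the transcription factor of germinal centre B cells. Polh was the only one of the 8 with an SD of log2(FPKM + 1) of at least 0.3 over libraries (0.43), the level required for naming like genes. Over all tested genes the median SD was 0.14.

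Msh6, the subunit of the mismatch receptor that reads U:G pairs and single-base mismatches, was the most abundant of the 8. It lies on chromosome 17, 87975050 to 87990883, plus strand. It measured 13.2, 14.95 and 18.8 FPKM in WT replicates 1, 2 and 3 and 19.1, 13.8 and 15.4 FPKM in CD40LΔ5 replicates 1, 2 and 3. The same pair of libraries as for Polh was highest. By label the means were 16.1 ± 2.72 FPKM in CD40LΔ5 and 15.7 ± 2.85 in WT (SD, n = 3), with a limma log2 difference of 0.04 ± 0.16 SE (95% interval -0.35 to 0.42). That sign turned without CD40LΔ5 replicate 1 (-0.09) or WT replicate 1 (-0.07). By the table the sets did not overlap, at 13.998 ± 0.873 FPKM MUT-averaged and 17.7 ± 2.08 WT-averaged (SD, n = 3). The limma difference was -0.32 ± 0.10 SE (95% interval -0.56 to -0.07; adjusted p = 0.352), and no alternative fit turned its sign. Msh3, a paralog of Msh6 that reads small loops, held 6.70 to 8.20 FPKM with a log2 difference by the table of 0.01 ± 0.10 SE. The ratio of Msh6 to Msh3 was 1.73 to 1.99 in the MUT-averaged libraries and 2.29 to 2.66 in the WT-averaged ones.

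Polh and Msh6 lie on the same chromosome, 17, far apart, and showed nearly the same order of libraries, so the 250 bases before each start site are shown for comparison. They are the RefSeq windows of build GRCm38.p6, chr17:46202642-46202891 (minus strand) for Polh and chr17:87974800-87975049 (plus strand) for Msh6, 5′ to 3′, and capitals mark the only match to a searched motif.
Polh: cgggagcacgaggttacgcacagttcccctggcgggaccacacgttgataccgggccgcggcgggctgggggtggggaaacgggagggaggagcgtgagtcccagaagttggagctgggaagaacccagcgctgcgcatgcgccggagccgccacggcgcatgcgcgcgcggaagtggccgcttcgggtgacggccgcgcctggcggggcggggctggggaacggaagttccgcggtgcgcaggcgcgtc
Msh6: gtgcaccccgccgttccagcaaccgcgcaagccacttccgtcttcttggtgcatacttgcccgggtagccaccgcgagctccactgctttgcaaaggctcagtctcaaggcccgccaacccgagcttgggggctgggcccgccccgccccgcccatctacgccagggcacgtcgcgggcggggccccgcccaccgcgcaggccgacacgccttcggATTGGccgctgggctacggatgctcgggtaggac
Both windows are rich in G and C (73.2% for Polh and 70.8% for Msh6, against a median of 52.4% over the 32851 windows of the table). The capitals in Msh6 are a CCAAT box on the opposite strand, 34 to 30 bases before the start, a sequence that 33.8% of all windows hold on either strand. The 4 spellings of an E2F site searched (TTTCCCGC, TTTCGCGC, TTTGCCGC and TTTGGCGC, held by 1.86% of windows), the CHR spellings TTTGAA and TTCGAA (17.1%) and the E box CAGGTG (17.2%) were in neither window, nor in those of Ung, Rev1, Trp53bp1 and Lig4. A missing match says only that these letters are not in these windows.

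Exo1, the exonuclease that resects from the mismatch, was the least abundant of the 8 and rested on 164 to 291 reads (chromosome 1, 175880778 to 175911396, plus strand). It measured 1.29, 1.40 and 1.92 FPKM in WT replicates 1, 2 and 3 and 1.72, 1.199 and 1.59 FPKM in CD40LΔ5 replicates 1, 2 and 3. WT replicate 3 and CD40LΔ5 replicate 1 were again highest. By label the means were 1.502 ± 0.270 FPKM in CD40LΔ5 and 1.54 ± 0.334 in WT (SD, n = 3), with a log2 difference of -0.02 ± 0.16 SE (95% interval -0.40 to 0.36). That sign turned without CD40LΔ5 replicate 2 (0.07) or WT replicate 3 (0.09). By the table the sets did not overlap, at 1.30 ± 0.103 FPKM MUT-averaged and 1.74 ± 0.164 WT-averaged (SD, n = 3). The limma difference was -0.25 ± 0.12 SE (95% interval -0.53 to 0.02; adjusted p = 0.400). The pseudocount of 1 shrinks the change of so low a gene: limma voom on whole reads gave -0.42 ± 0.15 SE (adjusted p = 0.346) and a pseudocount of 0.1 gave -0.40. Mcm5, a subunit of the replicative helicase, kept a nearly fixed proportion to Exo1, and the ratio of Exo1 to Mcm5 lay between 0.0373 and 0.0454. The ratio of Exo1 to Mki67, another gene of the proliferation list, was not fixed and ran from 0.0723 to 0.170. It was higher in the MUT-averaged libraries, without overlap.

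Polh, Msh6 and Exo1 shared 1 order of libraries. In each of the 3, WT replicate 1 and CD40LΔ5 replicate 2 were lowest, then came WT replicate 2, then CD40LΔ5 replicate 3, and WT replicate 3 and CD40LΔ5 replicate 1 were highest. This order was noticed in these values and is a description. It was found in 122 of 11252 tested genes (1.08%), in 8 of the 15 proliferation genes (Mki67, Top2a, Mcm2, Mcm3, Mcm4, Mcm5, Mcm7 and Ccna2), in 3 of 55 other genes of the pathway (Lig1, Lig3 and Rfc1) and in none of the 12 germinal centre genes. These counts hang on the step from WT replicate 2 to CD40LΔ5 replicate 3, whose Poisson intervals overlap in all 3 genes. The summed germinal centre genes had the same lowest and highest libraries, with only that step reversed (244 and 173 FPKM). Bcl6, of the germinal centre list, was among the genes nearest to Polh. Mki67, a marker of cycling cells, measured 7.59, 14.5 and 21.8 FPKM in WT replicates 1, 2 and 3 and 23.8, 7.32 and 18.2 in CD40LΔ5 replicates 1, 2 and 3, a wider range (3.25-fold) than that of any of the 8 genes. In a mixture of B cells, fewer cells of a type and less RNA per cell cannot be told apart.

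**Figure D2:**
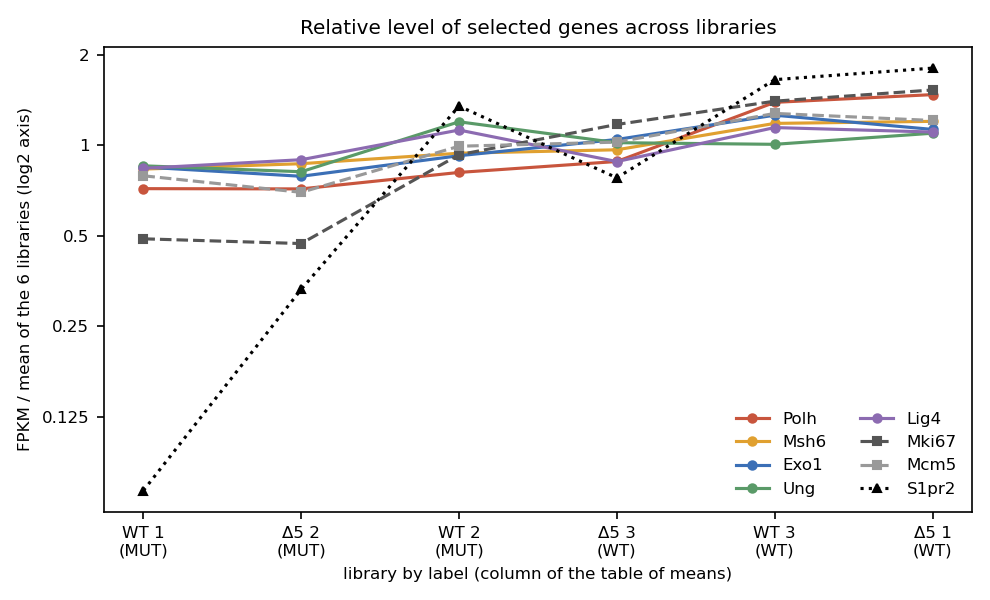
FPKM divided by the mean of the 6 libraries (log2 axis) for 5 of the genes and for Mki67, Mcm5 and S1pr2; libraries are set in the order described in the text, with the column of the table of means in brackets, and lines only join the points of a gene. S1pr2 spans 25.5-fold and Mki67 3.25-fold, while Polh spans 2.06-fold and the other repair genes drawn less.

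Ung (chromosome 5, 114130386 to 114139323, plus strand), the glycosylase that opens the abasic route from uracil, showed another order. It measured 7.55, 10.6 and 8.91 FPKM in WT replicates 1, 2 and 3 and 9.70, 7.22 and 9.02 FPKM in CD40LΔ5 replicates 1, 2 and 3. WT replicate 2 was highest, and WT replicate 1 and CD40LΔ5 replicate 2, also the libraries poorest in S1pr2, were lowest. The highest Ung library exceeded the lowest by 1.47-fold. By label the means were 8.65 ± 1.28 FPKM in CD40LΔ5 and 9.02 ± 1.52 in WT (SD, n = 3), with a log2 difference of -0.05 ± 0.15 SE (95% interval -0.41 to 0.30). That sign turned without CD40LΔ5 replicate 2 (0.06) or without WT replicate 2 (0.06). By the table the sets overlapped, at 8.45 ± 1.86 FPKM MUT-averaged and 9.21 ± 0.428 WT-averaged (SD, n = 3; log2 difference -0.13 ± 0.14 SE). It was -0.28 without WT replicate 2 and -0.035 without CD40LΔ5 replicate 2. The 95% interval of that difference, -0.45 to 0.20, allows a change either way.

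Apex2, an AP endonuclease, measured 2.44, 2.24 and 2.29 FPKM in WT replicates 1, 2 and 3 and 2.86, 2.78 and 2.13 FPKM in CD40LΔ5 replicates 1, 2 and 3. The label groups overlapped, because CD40LΔ5 replicate 3 was the lowest of all. The means were 2.59 ± 0.400 FPKM in CD40LΔ5 and 2.32 ± 0.104 in WT (SD, n = 3; log2 difference 0.11 ± 0.13 SE), and by the table's sets 2.48 ± 0.273 and 2.42 ± 0.384 FPKM (SD, n = 3; log2 difference 0.03 ± 0.12 SE). The label difference was 0.2015 without CD40LΔ5 replicate 3 and 0.0502 without CD40LΔ5 replicate 1. By the table Apex2 was the only one of the 8 with a positive difference, and its sign depended on the scaling (-0.0055 with size factors) and turned without CD40LΔ5 replicate 2 (-0.031) or 3 (-0.034). The 95% intervals were -0.20 to 0.41 by label and -0.27 to 0.32 by the table. Apex1, the major AP endonuclease of most cells, stood at 6.43 to 8.08 FPKM, and the ratio of Apex2 to Apex1 was 0.263 to 0.432. The listed span of Apex2 on chromosome X (150519519 to 150589868, minus strand) runs across Alas2, an erythroid gene on the plus strand, with which and with Pfkfb1 it shares 434 exonic bases in GENCODE M21. The library kit does not mark the strand. Alas2 was lowest in CD40LΔ5 replicate 1 (2.87 FPKM against 6.10 to 9.59 elsewhere), where Apex2 was highest.

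Rev1, a deoxycytidyl transferase and scaffold for other translesion polymerases, measured 5.63, 7.79 and 7.27 FPKM in WT replicates 1, 2 and 3 and 8.03, 6.97 and 6.71 FPKM in CD40LΔ5 replicates 1, 2 and 3. WT replicate 1 stood lowest and the groups overlapped both ways. The means were 7.24 ± 0.699 FPKM in CD40LΔ5 and 6.90 ± 1.12 in WT (SD, n = 3; log2 difference 0.07 ± 0.13 SE). They were 6.80 ± 1.09 FPKM MUT-averaged and 7.34 ± 0.662 WT-averaged (SD, n = 3; log2 difference -0.10 ± 0.12 SE). Without WT replicate 1 both signs turned, to -0.053 by label and 0.0085 by the table, and without CD40LΔ5 replicate 1 the label difference was -0.0001. The ratio of Polh, which Rev1 can recruit, to Rev1 was 1.27 to 2.37 with the deposited lengths. Rev1 on chromosome 1 (38052787 to 38129662, minus strand) overlaps Eif5b at its 3′ end, with 1643 exonic bases shared in GENCODE M21. Eif5b held 19.1 to 22.8 FPKM, and how shared reads were assigned is not given in the sources used here.

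Trp53bp1, the gene of 53BP1, varied least, and its label groups touched without overlapping. It measured 5.85, 5.16 and 5.79 FPKM in WT replicates 1, 2 and 3 and 6.80, 6.30 and 5.85 FPKM in CD40LΔ5 replicates 1, 2 and 3. The highest WT and the lowest CD40LΔ5 library agree within counting error (95% Poisson intervals 5.55 to 6.16 and 5.57 to 6.15 FPKM). The means were 6.32 ± 0.472 FPKM in CD40LΔ5 and 5.60 ± 0.383 in WT (SD, n = 3), with a limma log2 difference of 0.15 ± 0.10 SE (95% interval -0.08 to 0.38; adjusted p = 1.00). By the table the sets overlapped, at 5.77 ± 0.576 and 6.15 ± 0.563 FPKM (SD, n = 3; log2 difference -0.08 ± 0.10 SE), with a difference from -0.14 (without CD40LΔ5 replicate 2) to -0.013 (without WT replicate 2). Rif1 encodes the effector that 53BP1 brings to break ends, and the ratio of Trp53bp1 to Rif1 was 0.656 to 0.723 over the 6 libraries. Each gene alone also varied little (1.32-fold for Trp53bp1 and 1.35-fold for Rif1), which by itself keeps such a ratio narrow. Trp53bp1 on chromosome 2 (121193281 to 121271407, minus strand) overlaps Tubgcp4, with 2130 exonic bases shared. Tubgcp4 was highest in CD40LΔ5 replicate 2 and WT replicate 2 (8.51 and 8.04 FPKM). Trp53bp1 was near its highest in the former (6.30 FPKM) and lowest in the latter (5.16 FPKM). Whether shared reads add to either gene was not tested.

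Lig4 (chromosome 8, 9970020 to 9977686, minus strand), the ligase of non-homologous end joining, measured 2.70, 3.62 and 3.69 FPKM in WT replicates 1, 2 and 3 and 3.56, 2.88 and 2.84 FPKM in CD40LΔ5 replicates 1, 2 and 3. The 3 libraries at 3.56 FPKM or more and the 3 at 2.88 or less came from both labels and both sets. The means were 3.09 ± 0.405 FPKM in CD40LΔ5 and 3.33 ± 0.552 in WT (SD, n = 3; log2 difference -0.08 ± 0.14 SE), and by the table's sets 3.07 ± 0.487 and 3.36 ± 0.457 FPKM (SD, n = 3; log2 difference -0.10 ± 0.13 SE). The label difference lay between -0.19 (without WT replicate 1) and -0.018 (without WT replicate 3), and that by the table between -0.198 (without WT replicate 2) and -0.038 (without WT replicate 1). Xrcc4, its obligate partner, held 2.02 to 2.97 FPKM and was lowest in WT replicate 2, where Lig4 was near its highest, and the ratio of Lig4 to Xrcc4 ranged from 0.972 to 1.79.

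By label, limma called 0 of the 8 genes at an adjusted p of 0.05, against 0% of all 11252 tested genes. At an unadjusted p under 0.05 there were also 0 of 8, against 1.24% of all genes, and limma voom gave 0 of 8 at either level. The groups did not overlap for 1 of 8 (Trp53bp1, higher in CD40LΔ5), against 2.98% of all genes in that direction and 4.29% in either. The median log2 difference over the 8 was 0.05, beside 0.01 over all tested genes.

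By the sets of the table, limma called 0 of the 8, against 0.0267% of all tested genes (0.00889% lower and 0.0178% higher in the MUT-averaged libraries). At an unadjusted p under 0.05 there were 2 of 8 (Polh and Msh6, both lower in the MUT-averaged libraries), against 3.61% of all genes in that direction and 13.0% in either. Voom gave 3 of 8 at that level (with Exo1), but its share of all genes at that level is not given here. After adjustment voom called 0 of the 8 and 1 of all 11252 genes. Groups did not overlap for 3 of 8, all lower (Polh, Msh6 and Exo1), against 4.79% of all genes in that direction and 16.9% in either. The 8 had a median log2 difference of -0.12 (-0.24 without WT replicate 2), beside 0.05 over all tested genes, and 7 of the 8 differences were negative. Proliferation genes shared this direction in 14 of 15 cases (median -0.52), and germinal centre genes in 12 of 12 (median -1.11). The table's sets did not overlap for 8 of these 15 genes and for 0 of these 12. Those 8 are the genes named above as sharing the library order of Polh, Msh6 and Exo1. That order itself sets the table's sets apart, so the count adds nothing to it. By label 4 proliferation genes were higher and 11 lower in CD40LΔ5 (median -0.06). Of the germinal centre genes 9 were higher and 3 lower by label (median 0.07).

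**Figure D3:**
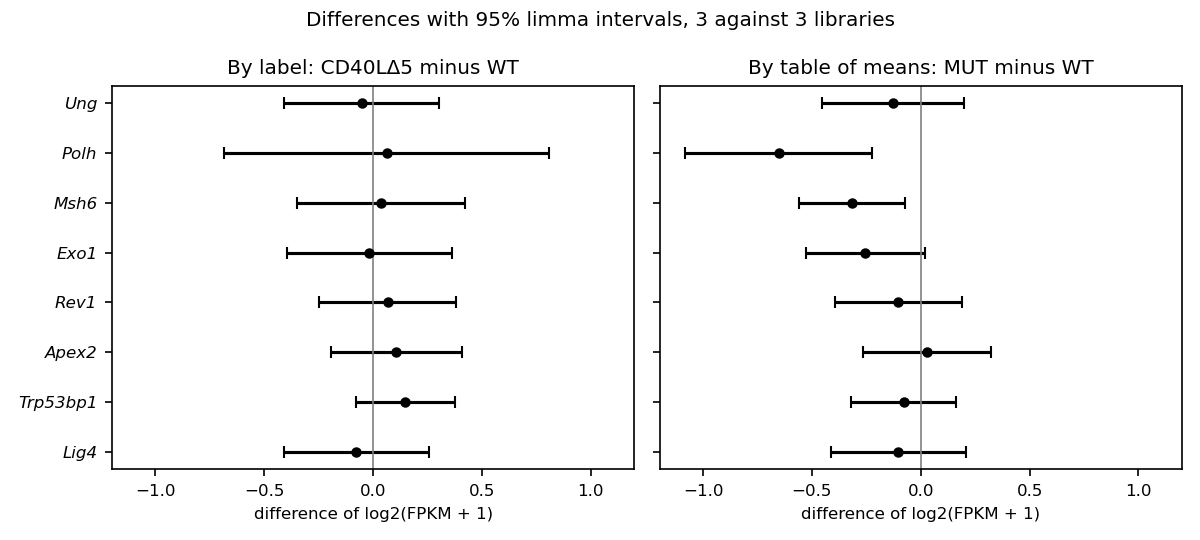
Difference of log2(FPKM + 1) for each gene with its 95% limma interval (horizontal axis), by label on the left and by the sets of the authors' table on the right, 3 against 3 libraries. By label every interval includes 0; by the table those of Polh (-1.08 to -0.22) and Msh6 (-0.56 to -0.07) do not, though neither gene passed adjustment over all genes.

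The other genes of the same routes give the setting. Of 58 entries in 6 pathway lists 55 were found and all 55 were tested, and none was called in either comparison. By label 40 were higher and 15 lower in CD40LΔ5 (median log2 difference 0.03), and by the table's sets 19 were higher and 36 lower in the MUT-averaged libraries (median -0.06). By the table the groups did not overlap for 5 lower and 4 higher genes of the 55, against 4.79% and 12.1% of all tested genes. By label they did not overlap for 0 lower and 4 higher genes (Rev3l, Atm, Rad50 and Prkdc, with log2 differences of 0.19, 0.28, 0.22 and 0.22), against 1.32% and 2.98% of all tested genes.

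Among 10 cofactors that act upstream of repair on the list, such as the elongation factors Supt5 and Supt6 and the replication protein A subunits, 7 were lower and 3 higher by the table (median -0.06). Their differences ran from -0.11 (Rpa1) to 0.27 (Ptbp2, a splicing factor; adjusted p = 0.384) and included 0.26 for Gadd45a, a stress-induced demethylation factor (adjusted p = 0.356).

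In uracil and abasic site repair 8 of 10 genes were lower by the table (median -0.15). Fam72a, an antagonist of Ung protein, measured 0.429, 1.03 and 1.47 FPKM in WT replicates 1, 2 and 3 and 1.51, 0.680 and 0.917 FPKM in CD40LΔ5 replicates 1, 2 and 3. Its log2 difference was 0.06 by label and -0.43 ± 0.19 SE by the table (adjusted p = 0.393). Unlike Ung, it was highest in CD40LΔ5 replicate 1 and WT replicate 3. Hmces, which shields abasic sites in single-stranded DNA, spanned 23.9 to 59.2 FPKM with a table difference of -0.55 ± 0.33 SE. By label the difference of Hmces was -0.11. Lig3 and Parp1, of single-strand break repair, did not overlap between the table's sets, both with a log2 difference of -0.15 and adjusted p of 0.429 and 0.444. Polb, the polymerase of base excision repair, did not overlap either, on the other side (0.17; adjusted p = 0.457).

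In mismatch repair 3 of 7 genes were lower by the table (median 0.01). All 3 also serve the replication fork, and whether this plays a part was not tested. Lig1, the replicative ligase, measured 14.9, 19.0 and 23.3 FPKM in WT replicates 1, 2 and 3 and 23.8, 13.9 and 20.0 FPKM in CD40LΔ5 replicates 1, 2 and 3 (table difference -0.47 ± 0.13 SE; limma adjusted p = 0.343). Rfc1, the large subunit of the clamp loader, had a table difference of -0.25 ± 0.08 SE (limma adjusted p = 0.352). Pcna, the clamp, was at -0.14 ± 0.15 SE with overlapping sets (limma adjusted p = 0.679). By label the differences were 0.001 for Lig1, 0.11 for Rfc1 and -0.08 for Pcna. By the table Msh3, Mlh3, Pms1 and Pms2 lay between 0.01 and 0.11.

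In translesion synthesis the other polymerases spanned less than Polh. Polk held 2.81 to 3.41 FPKM (table difference 0.10 ± 0.09 SE), Poli 6.22 to 9.82 FPKM (0.19 ± 0.14 SE), and Rev3l, the catalytic subunit of polymerase zeta, 5.99 to 8.65 FPKM (-0.19 ± 0.10 SE; adjusted p = 0.445). Mad2l2, the small subunit of polymerase zeta that also belongs to shieldin, was at -0.08 ± 0.11 SE. Polq and Usp1, which removes ubiquitin from PCNA, had differences of -0.20 each (adjusted p = 0.502 and 0.389). The ratio of Polh to Polk was 5.58 and 6.13 in CD40LΔ5 replicate 1 and WT replicate 3 and 2.68 to 3.58 in the other libraries.

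Around 53BP1, 10 of 12 genes were lower by the table (median -0.06) and 8 of 12 higher by label (median 0.06). H2afx, the histone variant phosphorylated at breaks, had the largest table difference of that list, -0.54 ± 0.19 SE (adjusted p = 0.356). By label the difference of H2afx was -0.11. Its values were 49.9, 63.4 and 89.0 FPKM in the 3 WT libraries and 84.2, 44.9 and 59.4 FPKM in the 3 CD40LΔ5 libraries, in replicate order. By the table Rad50 and Rif1 were at -0.20 and -0.14 (adjusted p = 0.440 and 0.536). Fam35a, the shieldin subunit Shld2, was at -0.03 ± 0.14 SE. Atm, the kinase at the head of this route, was the 1 pathway gene with an unadjusted p under 0.05 by label, with a log2 difference of 0.28 and -0.04 by the table.

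In end joining all 8 genes were higher by label (median 0.08), the widest being Prkdc, the catalytic subunit of DNA-PK, at 0.22. By the table's sets 5 were higher and 3 lower (median 0.03). Nhej1 measured 3.05, 3.63 and 2.27 FPKM in WT replicates 1, 2 and 3 and 2.94, 3.59 and 2.76 FPKM in CD40LΔ5 replicates 1, 2 and 3, with a table difference of 0.28 ± 0.12 SE (adjusted p = 0.378). Polm (0.32; adjusted p = 0.387) and the nuclease gene Dclre1c (0.34; adjusted p = 0.429) lay on the same side, opposite to Lig4 at -0.10, and Xrcc4 was at 0.03.

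**Figure D4:**
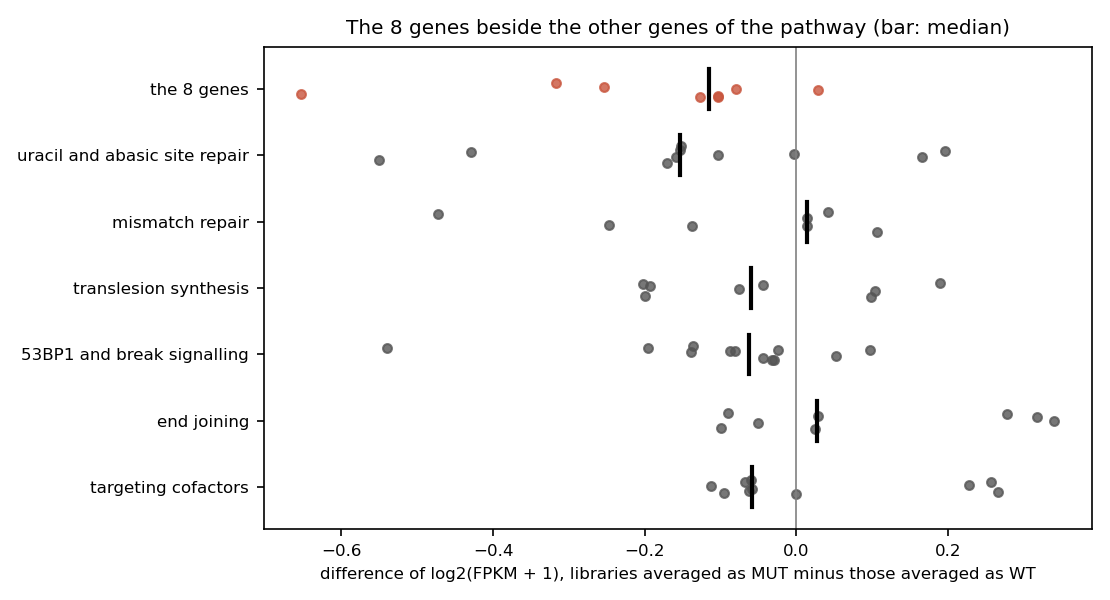
Difference of log2(FPKM + 1) between MUT-averaged and WT-averaged libraries (horizontal axis) for the 8 genes and for the genes of the 6 pathway lists (rows; points are genes with vertical jitter, the bar is the list's median). The medians lie between -0.15 and 0.03, and Polh at -0.65 lies farthest from 0.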

How the data were processed

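RNA of splenic B cells was sequenced with an Illumina TruSeq kit, per the labels' protocols. CASAVA 1.8.2, STAR, DESeq2 and the build mm9 are named, without a role, in the submitters' processing notes; the sources used here give neither counting tool nor annotation. The authors deposited FPKM per gene and library and their means in 2 columns. Gene coordinates are printed as deposited; those of Ung, Apex2 and Trp53bp1 equal GENCODE M21 (GRCm38). FPKM times gene length gave whole reads for 100% of values (tolerance 0.01 reads).

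The 8 genes and all lists were chosen with earlier results of these data known. limma 3.58.1 in R 4.3.3 (trend, two-sided, Benjamini-Hochberg over the 11252 genes averaging 1 FPKM or more, threshold 0.05) was run on log2(FPKM + 1), 3 against 3 libraries, by label and by the table's sets, which were matched to libraries by their means. The procedure was tested on simulated data. Alternatives tried were another filter, pseudocount, scaling or variance setting, limma voom on whole reads, a replicate block, each library left out, and the 4 libraries that both sources split alike under opposite names. Named besides the 8 are partners and paralogs fixed by name, the 3 genes of smallest p by the table in each pathway list, markers, and genes of like profile; other names were chosen after their values were seen, as were the ratios and the order of libraries shared by Polh, Msh6 and Exo1. Some genes of these lists are not reported here and were left out of the list counts.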

Additional observations from a re-analysis of the deposited data

How the results depend on the processing

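None of the 8 genes was called by label or by the table in any alternative run (limma, adjusted p of 0.05). The count of all genes called by label was 0 in the main comparison and 2 with the 4 libraries split alike by both sources. By the table it was 3, and became 0 with a mean of at least 5 FPKM, 1 without a filter, 5 with a pseudocount of 0.1, 6 with robust variances, 1 with voom, and 1 to 16 with a library left out (1 without CD40LΔ5 replicate 2, 13 without WT replicate 2, 16 without CD40LΔ5 replicate 1). The cause was not tested. The median over the 8 by the table (-0.12) ran from -0.24 (without WT replicate 2) to -0.077 with a library left out, and by label (0.05) from -0.082 to 0.10. Signs turned with a library left out for Polh (-0.21 to 0.33), Msh6 (-0.085 to 0.17), Exo1 (-0.087 to 0.088), Rev1 (-0.053 to 0.15) and Ung (-0.16 to 0.059) by label, and for Apex2 (-0.034 to 0.12) and Rev1 (-0.19 to 0.0085) by the table. With the 4 libraries they turned for Exo1 (0.18), Lig4 (0.019) and Ung (0.057) by label and for Apex2 (-0.058) by the table. The same 4 libraries moved the label difference of Polh to 0.54, that of Msh6 to 0.27 and the median over the 8 to 0.15, all above the values with a library left out. Apex2 by the table was also -0.0055 with size factors and -0.0041 without immunoglobulin and histone genes. By the table Polh, Msh6, Exo1, Lig4, Trp53bp1 and Ung kept their sign in every alternative run. The replicate numbers did not pair the libraries (correlations of deviations -0.38, 0.06 and 0.38), and with the replicate block 0 genes were called by label. No paired analysis was possible by the table because its sets share 1 replicate number. With 3 libraries a group and 164 to 291 reads, changes of Exo1 smaller than its interval cannot be seen.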
